A study of Mus musculus with 6 samples.

Results

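DCT2 cells line the late part of the distal convoluted tubule, between the early distal convoluted tubule (DCT) and the connecting tubule (CNT). They were taken here as every cell that the authors' deposited annotation assigns to the class DCT2. These were 485 of 22154 kidney cells. The neighbouring classes held 1901 DCT cells and 1116 CNT cells.

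Cells of this segment are known to reabsorb sodium and calcium. Sodium chloride enters through the thiazide-sensitive cotransporter NCC, made from Slc12a3, and in the later segments sodium also enters through the epithelial sodium channel ENaC, which responds to aldosterone. Calcium enters through the channel TRPV5, is carried by the calbindins made from Calb1 and S100g, and leaves on the blood side through exchangers such as NCX1, made from Slc8a1. Furosemide is a loop diuretic that blocks salt uptake in the thick ascending limb (TAL), upstream of these cells, so that more salt reaches them.

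The mice of both treatments were labelled WT, were C57BL/6 (C57BL/6J in the treatment protocol) and were 16 weeks old. For 1 week they ate a gel diet with 104 µmol sodium per kcal, to which vehicle or furosemide was added, the drug at a dose of 70 mg per kg. Each treatment has 3 libraries, numbered 1, 3 and 5 for vehicle and 2, 4 and 6 for furosemide. Kidneys were dissociated with collagenase and single cells were captured on BD Rhapsody beads. The labels do not say that the samples came from separate animals, so p-values measure only the spread between samples. The count table holds 456 chosen genes. A level is therefore a share of the counts within this panel, given as counts scaled to a fixed total (CPM).

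Vehicle libraries 1, 3 and 5 held 75, 45 and 40 DCT2 cells, and furosemide libraries 2, 4 and 6 held 105, 108 and 112. Median counts per DCT2 cell, in the same order, were 1866, 1971 and 1202 for vehicle, and 1605, 1595 and 1514 for furosemide. Vehicle library 5 had both the fewest DCT2 cells and the shallowest. Of the 485 cells, 9 carried a cell number that also occurs in another library, against 392 of all 22154 cells.

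Every DCT2 cell held counts of Slc12a3, Calb1 and S100g together. The same combination was found in 73.9% of DCT cells, in 14.8% of CNT cells and in 1.39% of cells of the proximal s2/s3 class, which should lack it. Slc12a3 and Trpv5 were found together in 68.0% of DCT2 cells, 1.89% of DCT cells and 13.8% of CNT cells. With each cell thinned to 500 counts these last shares were 42.8%, 0.854% and 3.62%. Slc12a3 alone was found in 12.9% of proximal s2/s3 cells and 14.8% of CNT cells, or 5.68% and 5.42% after thinning, so the Slc12a3 of CNT cells was at the background share. All 5 markers (Calb1, Slc12a3, S100g, Slc8a1 and Trpv5) were found together in 22.7% of DCT2 cells before thinning and in 4.16% after it. Slc8a1 alone was found in 27.0% of DCT2 cells and 30.4% of CNT cells before thinning. The label therefore matched Slc12a3, Calb1 and S100g in every cell, and Trpv5 and Slc8a1 in a part of the cells. Since the annotation was made from the same cells, these values and all levels between classes are descriptions without a test.

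In plain CPM, averaged over the 6 libraries, Slc12a3, S100g and Trpv5 had levels in DCT2 between those of its neighbours, while Calb1 and Slc8a1 had their highest mean in DCT2. Slc12a3 stood at 101189 CPM in DCT, 67366 in DCT2 and 217 in CNT. S100g ran the other way, from 12925 in DCT to 321489 in DCT2 and 392658 in CNT. Trpv5 was at 20.8 CPM in DCT, 1458 in DCT2 and 1992 in CNT. The gain of calcium genes thus lay between DCT and DCT2, and the loss of the cotransporter transcript between DCT2 and CNT. Calb1 was at 34015, 76166 and 29022 CPM in the same order, and its range over libraries in DCT2 (68832 to 83652) lay above both neighbours. Slc8a1 was at 52.8, 223 and 175 CPM, and its ranges in DCT2 and CNT overlapped. S100g made up a far smaller share of the panel counts in DCT than in DCT2 and CNT. Plain CPM of every other gene is therefore lowered in DCT2 and CNT relative to DCT. The lower Slc12a3 level in DCT2 than in DCT cannot be told apart from this here. Levels with S100g left out were not compared between classes.

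**Figure D1:**
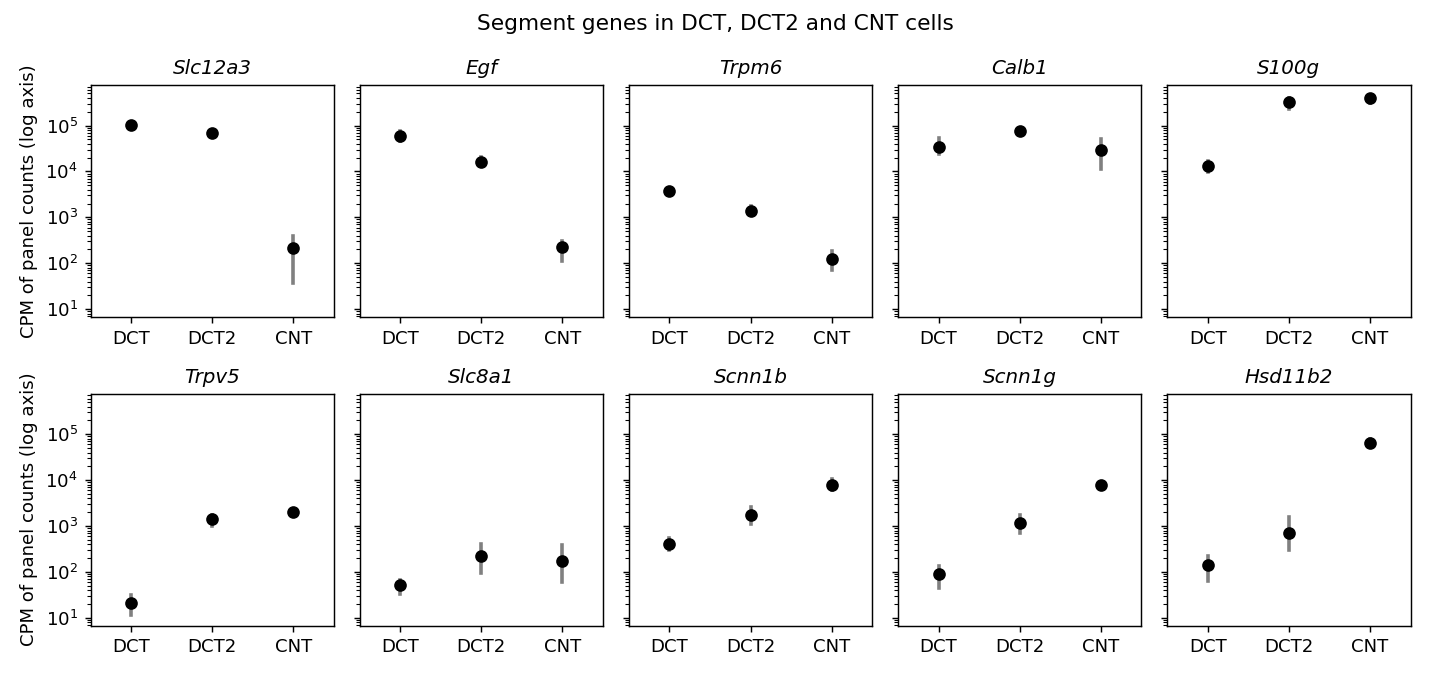
Level of 10 segment genes in DCT, DCT2 and CNT cells, in plain CPM of the panel counts on a log axis. Points are means over 6 libraries and bars run from the lowest to the highest library. Slc12a3, Egf and Trpm6 fall along the order DCT, DCT2, CNT, Scnn1b, Scnn1g and Hsd11b2 climb along it, and Calb1 is highest in DCT2.

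Other genes of the early segment had intermediate levels in DCT2. Trpm6, the magnesium channel of the distal convoluted tubule, was at 3799 CPM in DCT, 1408 in DCT2 and 125 in CNT. Egf, whose product promotes magnesium uptake there, was at 59439, 16272 and 227 CPM. Wnk1, a kinase gene that regulates NCC, was at 23541, 20695 and 3513 CPM, so that DCT2 lay near DCT. The ranges of Wnk1 over libraries overlapped between DCT and DCT2. The share taken by S100g lowers these DCT2 levels too, and Wnk1 was not compared without it. Umod, the TAL gene of uromodulin, was at 109921 CPM in DCT and 6071 in DCT2.

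The ENaC subunits were graded differently from each other. Scnn1a, the alpha subunit, was at 3911 CPM in DCT, 3551 in DCT2 and 3032 in CNT, with overlapping ranges. Its lower levels in DCT2 and CNT than in DCT are under the same limit from S100g. Scnn1b, the beta subunit, was at 413, 1756 and 7826 CPM, and Scnn1g, the gamma subunit, at 91.4, 1173 and 7842 CPM. Transcripts of all ENaC subunits were found together in 55.5% of DCT2 cells, 6.58% of DCT cells and 95.1% of CNT cells, or 18.5%, 1.17% and 67.8% after thinning. Hsd11b2, the enzyme that inactivates glucocorticoids in aldosterone-sensitive cells, was at 142, 708 and 64770 CPM, so that DCT2 lay far below CNT for this gene.

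Of the 184 genes with at least 100 CPM in DCT2, 93 had a level between those of DCT and CNT, 21 were above both and 70 below both. These counts use plain CPM, where the share taken by S100g lowers other genes in DCT2 relative to DCT. They therefore depend on S100g and were not made without it. Among 15 classes, 7 of these genes were highest in DCT2. They were Calb1, Clu, Kl, Sfrp1, Lpl, Slc4a3 and Slc8a1. The ranks average both treatments, and ranks within a treatment are not given here. With furosemide, Slc8a1 rose in CNT by a log2 fold change of 1.80 ± 0.31 (SE, edgeR adjusted p = 0.0157). Clu rose there by 0.80 ± 0.19 (adjusted p = 0.0427). In DCT2 these genes changed by 0.08 and -0.19. Calb1 was 2.24 times its level in the second class, DCT. Kl, the gene of klotho, a coreceptor for a hormone of phosphate and calcium balance, was 1.35 times its level in DCT, and Slc8a1 1.28 times its level in CNT. The other 4 were at most 1.16 times the second class.

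DCT2 cells varied widely among themselves. S100g took a median of 28.3% of a cell's counts, with 5.73% at the tenth percentile and 52.6% at the ninetieth. After thinning, and with each library's mean removed, the log2 count of Slc12a3 correlated with that of S100g at r = -0.59 over 481 cells. These points share a fixed total per cell, of which S100g is a large share. Egf correlated with Slc12a3 at r = 0.34 and with S100g at r = -0.34.

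The authors' second clustering placed 452 of the DCT2 cells (93.2%) in a single cluster named DCT sub3, which holds 453 cells in all. Another 22 cells lay in a cluster of type A intercalated cells (AIC sub2), and 11 in a CNT cluster (CNT sub3). The 22 cells held Slc12a3, Calb1 and S100g together with intercalated genes. Slc4a1, the chloride-bicarbonate exchanger of type A intercalated cells, was at 6321 CPM in them and at 15.4 in the main cluster. Aqp6, an intercalated water channel, was at 5480 CPM against 30.7. Their median was 2292 counts per cell, against 1579 in the main cluster. The 11 cells had Hsd11b2 at 20296 CPM, against 417 in the main cluster. The DCT2 mean of 708 CPM given above for this gene includes these 11 cells. The AIC sub2 cells were 8 of 160 vehicle cells (5%) and 14 of 325 furosemide cells (4.31%).

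DCT2 cells made up a larger share of the cells captured in the furosemide libraries. Vehicle libraries 1, 3 and 5 had DCT2 shares of 1.84%, 1.36% and 1.09% of all cells, and furosemide libraries 2, 4 and 6 had 3.44%, 2.43% and 3.12%. The groups did not overlap. The mean was 1.43% ± 0.38 (SD, n = 3) with vehicle and 2.999% ± 0.515 (SD, n = 3) with furosemide, a log2 ratio of 1.07 (two-sided exact permutation test, p = 0.1, the smallest that 3 against 3 allows). Other classes also differed in size. TAL cells numbered 2624 with vehicle and 1498 with furosemide, and CNT cells 400 and 716. With TAL cells left out of the total, the DCT2 share was 1.87% ± 0.50 and 3.45% ± 0.52 (SD, n = 3 each). The log2 ratio was then 0.88 (exact permutation p = 0.1). Within DCT, DCT2 and CNT cells together the DCT2 shares overlapped. They were 13.3%, 10.5% and 10.8% with vehicle and 16.0%, 11.9% and 19.4% with furosemide (exact permutation p = 0.2, log2 ratio 0.45). Of DCT and DCT2 cells alone, DCT2 made up 16.4% ± 1.3 and 23.4% ± 4.37 (SD, n = 3 each, exact permutation p = 0.1).

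**Figure D2:**
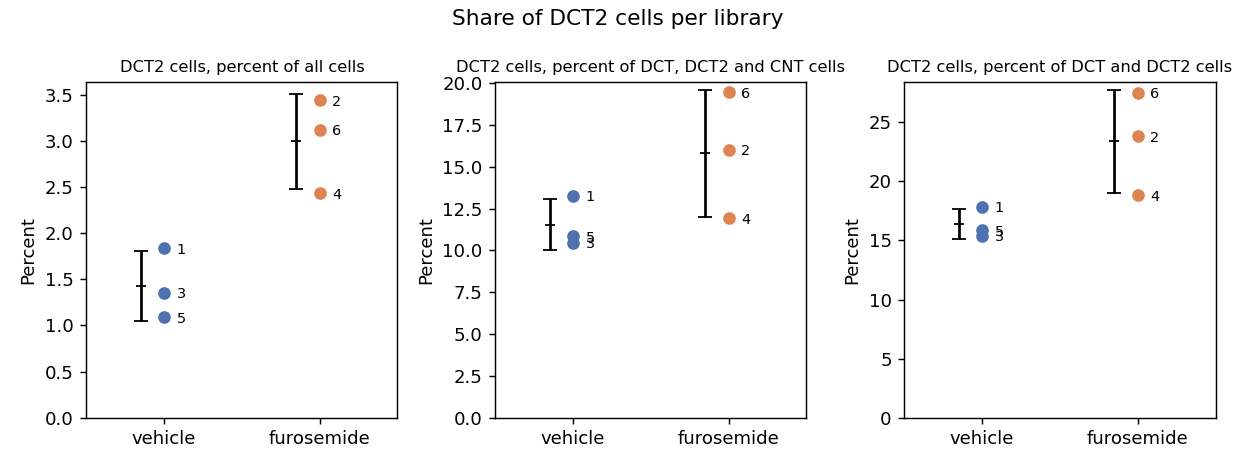
Share of DCT2 cells in each library, as percent of all cells, of DCT, DCT2 and CNT cells, and of DCT and DCT2 cells. Points are libraries with their number, and the bars beside them are the mean and SD of 3 libraries. The groups are apart in the first and last panel and overlap in the middle panel.

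These are shares of recovered cells after the authors' filters, not of tubule length. Class sizes also depend on where a class ends, and some genes of the border moved with treatment in the neighbouring CNT class (below).

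In DCT2 cells, 3 genes of 211 tested rose with furosemide and none fell. They were Ckb, Tfrc and Gpx6, and 1.42% of the genes tested were called in all. The test was edgeR's quasi-likelihood test on counts summed per library, with a threshold of 0.05 on the p adjusted over those 211 by Benjamini and Hochberg. Levels in the treatment comparison are TMM-scaled CPM. At an unadjusted p under 0.05 there were 24 genes.

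Ckb encodes the brain-type creatine kinase, which transfers phosphate between creatine and ATP. Vehicle libraries 1, 3 and 5 had it at 1178, 1068 and 1120 CPM, and furosemide libraries 2, 4 and 6 at 3818, 3637 and 5492. The vehicle libraries lay close together and furosemide library 6 was highest. The mean went from 1122 ± 55.2 to 4316 ± 1023 (SD, n = 3 each), a log2 fold change of 1.94 ± 0.19 (SE, edgeR adjusted p = 0.000177), or 3.84-fold.

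Tfrc encodes the transferrin receptor, through which cells take up iron. It was at 788, 1176 and 683 CPM with vehicle and at 2701, 2470 and 3748 with furosemide. Every furosemide library lay above the highest vehicle library, number 3. The log2 fold change was 1.75 ± 0.24 (SE, edgeR adjusted p = 0.00207), or 3.36-fold.

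Gpx6 encodes a glutathione peroxidase, an enzyme family that reduces peroxides. It was at 678, 1046 and 814 CPM with vehicle and at 2267, 1787 and 3191 with furosemide, without overlap. The log2 fold change was 1.52 ± 0.25 (SE, edgeR adjusted p = 0.00652), or 2.86-fold. In all of these genes furosemide library 6 was the highest of the 6 libraries. Without it Ckb, Tfrc and Gpx6 were still called.

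**Figure D3:**
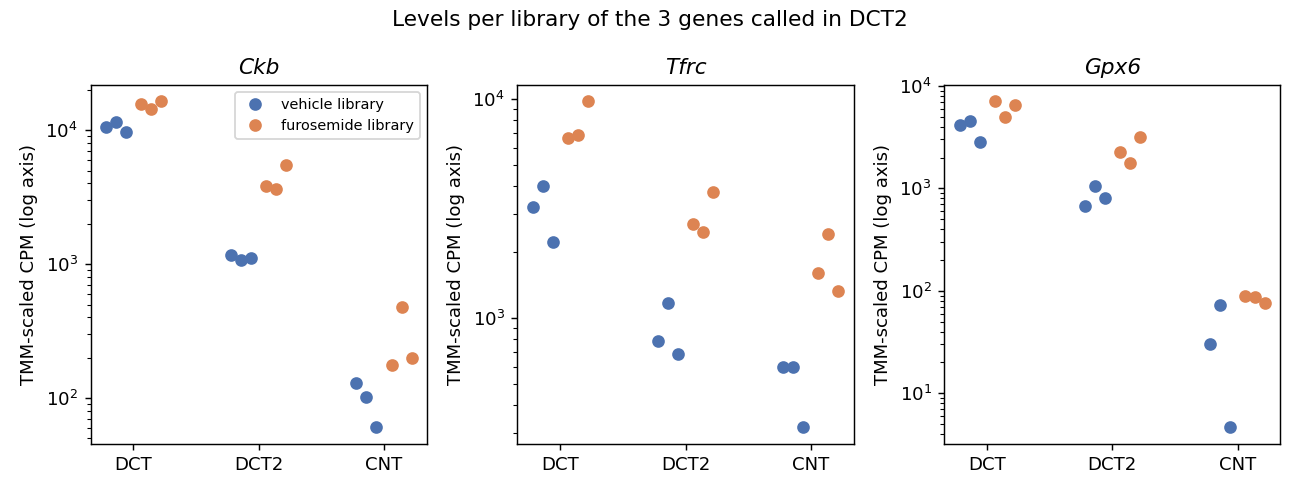
Level of Ckb, Tfrc and Gpx6 in each library in DCT, DCT2 and CNT cells, in TMM-scaled CPM on a log axis, scaled within each class. Each point is a library. In DCT2 every furosemide library lies above every vehicle library, and within each treatment the DCT2 level lies between those of DCT and CNT.

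The promoters of these genes, from 250 bases before to 50 bases after the start in RefSeq (build GRCm38.p6), are shown since the genes rose together. Capitals mark TATAAA (the TATA box), GGGCGG (a site of Sp1), ACGTG (the core of sites bound by hypoxia-inducible factors) and TGTTCT (the core of sites bound by mineralocorticoid and glucocorticoid receptors), searched on both strands. The regions are chr12:111672289-111672588 on the minus strand for Ckb, chr16:32608646-32608945 on the plus strand for Tfrc (the first of 2 starts listed) and chr13:21311953-21312252 on the plus strand for Gpx6.
Ckb: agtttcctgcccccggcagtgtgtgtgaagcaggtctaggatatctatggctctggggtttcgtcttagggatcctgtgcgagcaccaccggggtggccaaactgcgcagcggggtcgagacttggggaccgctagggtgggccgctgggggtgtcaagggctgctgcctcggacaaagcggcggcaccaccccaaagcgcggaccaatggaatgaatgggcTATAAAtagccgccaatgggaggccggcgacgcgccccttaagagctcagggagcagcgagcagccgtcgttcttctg
Tfrc: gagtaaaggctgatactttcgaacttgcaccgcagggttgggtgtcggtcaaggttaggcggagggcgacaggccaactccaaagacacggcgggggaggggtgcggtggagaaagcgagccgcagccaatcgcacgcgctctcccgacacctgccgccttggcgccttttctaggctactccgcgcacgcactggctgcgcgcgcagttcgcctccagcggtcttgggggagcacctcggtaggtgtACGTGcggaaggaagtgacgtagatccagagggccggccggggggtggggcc
Gpx6: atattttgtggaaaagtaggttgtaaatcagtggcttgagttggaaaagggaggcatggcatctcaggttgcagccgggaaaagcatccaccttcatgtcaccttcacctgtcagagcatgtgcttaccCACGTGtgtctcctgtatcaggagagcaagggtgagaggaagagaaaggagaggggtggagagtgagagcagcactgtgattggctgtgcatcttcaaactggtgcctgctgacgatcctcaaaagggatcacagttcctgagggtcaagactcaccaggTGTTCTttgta
The Ckb promoter held 1 TATAAA, found in 13.6% of 32851 RefSeq promoters of this length. The Tfrc promoter held 1 ACGTG, found in 19.6% of promoters. The Gpx6 promoter held 2 overlapping ACGTG, one on each strand, and 1 TGTTCT, found in 19.0% of promoters. No motif of the 4 occurred in every one of these promoters, and GGGCGG occurred in none of them. The GC content was 63%, 66% and 50%, against a median of 52.7% over all promoters.

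More DCT2 cells held the transcripts with furosemide, and more of them held many counts. Ckb was found in 35.1%, 20% and 30% of cells with vehicle and in 66.7%, 63.0% and 77.1% with furosemide, after thinning to 500 counts. Tfrc was found in 26.4% ± 8.1 and 60.5% ± 3.94 of cells, and Gpx6 in 25.3% ± 3.18 and 53.6% ± 8.37 (SD, n = 3 each). Each of these was apart between treatments (exact permutation p = 0.1, adjusted p = 0.1 over the 3 genes). The genes were chosen for the rise of these same counts, so the shares describe that rise and are not separate support. In proximal s2/s3 cells, given as a background class, Ckb was found in 1.63%, Gpx6 in 0.628% and Tfrc in 20.1% of thinned cells. By treatment, Tfrc was found there in 15.4% ± 8.18 with vehicle and 23.5% ± 8.01 with furosemide (SD, n = 3 each), with overlap. Ckb was found in 1.43% and 1.70% of them, and Gpx6 in 0.796% and 0.549%. The median depths were 1642 counts in these DCT2 cells and 1528 in the proximal cells. Cells with at least 10 counts of Ckb, unthinned, numbered 8 among 160 vehicle cells and 92 among 325 furosemide cells. For Tfrc they were 5 and 66, and for Gpx6 4 and 53. No count of Ckb was found in 80 of 160 vehicle cells and in 58 of 325 furosemide cells.

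Cells without a count of Trpv5 had higher mean levels of these transcripts than cells with one, in both treatments. Ckb was at 847 ± 306 CPM in vehicle cells with Trpv5 and at 2807 ± 308 in furosemide cells with Trpv5. In cells without Trpv5 it was at 2191 ± 624 and 8984 ± 918 CPM (SD, n = 3 libraries each). Tfrc was at 663 and 2169 CPM in cells with Trpv5, and at 1685 and 5362 in cells without. Gpx6 was at 703 and 2127 CPM, and at 1232 and 3175. The treatment difference was therefore seen on both sides of this split. In an edgeR fit on cells with Trpv5 alone the same 3 genes were called, with log2 fold changes of 1.68 for Ckb, 1.63 for Tfrc and 1.55 for Gpx6. In cells without Trpv5, Ckb was called (1.93), while Tfrc (1.58, adjusted p = 0.0841) and Gpx6 (1.32, adjusted p = 0.618) were not.

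**Figure D4:**
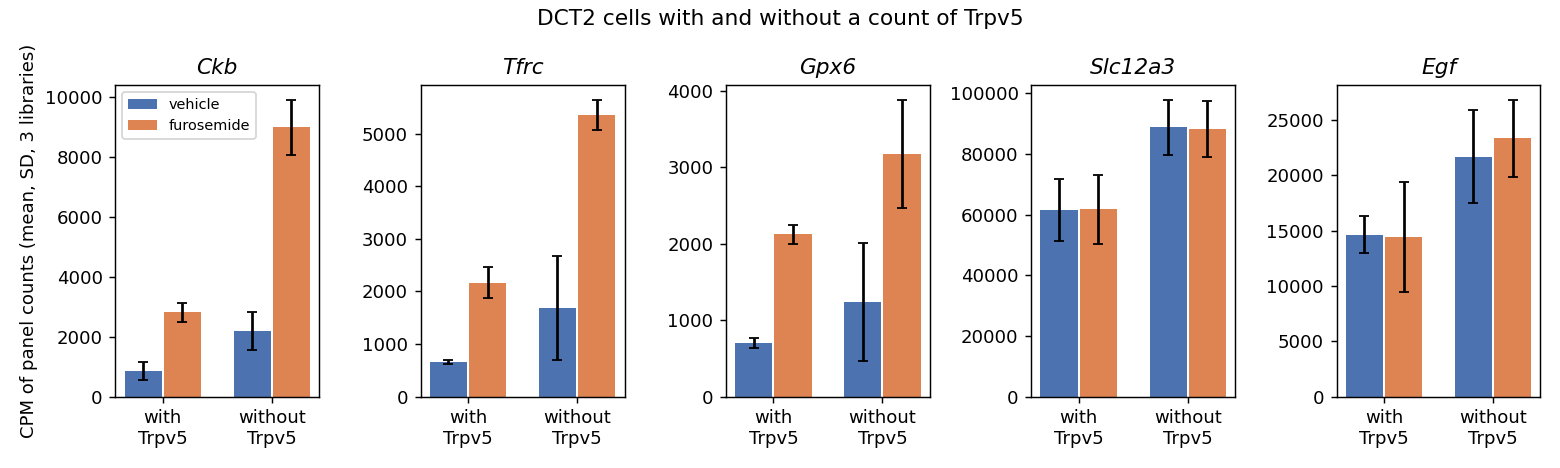
Level of Ckb, Tfrc, Gpx6, Slc12a3 and Egf in DCT2 cells with and without a count of Trpv5, in plain CPM. Bars are means of 3 libraries with SD, by treatment. Furosemide bars are higher for Ckb, Tfrc and Gpx6 in both kinds of cell, while Slc12a3 and Egf differ between treatments by less than their SD.

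The split follows depth as well as segment genes. Cells without Trpv5 had median counts of 1146 with vehicle and 1139 with furosemide, against 2092.5 and 1850 in cells with it. They also had more Slc12a3, at 88819 CPM against 61466 in vehicle cells. Cells without Trpv5 were 40 of 160 vehicle cells (25%) and 115 of 325 furosemide cells (35.4%), pooled over libraries. By library the groups overlapped. Trpv5 was found in 82.7%, 73.3% and 62.5% of cells in vehicle libraries 1, 3 and 5. In furosemide libraries 2, 4 and 6 it was found in 69.5%, 75% and 50%. Furosemide library 6 held 56 of the 115 cells. Over cells, Ckb correlated with Tfrc at r = 0.44, with Slc12a3 at r = 0.36, with Gpx6 at r = 0.31 and with S100g at r = -0.41 (thinned log2 counts within libraries, 481 cells that share the 6 libraries).

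The genes that rose were all higher in DCT than in CNT. In these same vehicle libraries 30 genes of the panel had a DCT level at least 4-fold the CNT level, and 22 of them were tested in DCT2. The 3 called genes were among these 22. Of the 22, 7 had all furosemide libraries above all vehicle libraries and 0 below, while over all 211 genes 9.48% were apart upward and 9.95% downward. Their median log2 fold change was 0.25, against 0.02 over all genes. The 16 tested genes with a CNT level at least 4-fold the DCT level had a median of -0.13, and none was called. The listed DCT markers did not share the upward lean. Of 6 tested, 2 were above 0 and 4 below, with a median of -0.05, and none was called.

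The markers of the class did not pass the test, and their place in defining the class limits what this can show. Slc12a3 was at 70635, 65119 and 69438 CPM with vehicle and at 65208, 64562 and 67983 with furosemide, a log2 fold change of -0.05 ± 0.14 (SE, edgeR adjusted p = 0.925) that was 0.0617 when scaled by library size alone. Calb1 changed by 0.03 ± 0.17 (adjusted p = 0.942) and Slc8a1 by 0.08 ± 0.38 (adjusted p = 0.942). Trpv5 was at 1835, 1808 and 1207 CPM with vehicle and at 1417, 1401 and 1125 with furosemide, and the groups overlapped (-0.30 ± 0.20, adjusted p = 0.623). S100g was at 382083, 473978 and 256639 CPM with vehicle and at 302752, 195167 and 372776 with furosemide (-0.35 ± 0.29, adjusted p = 0.679). It spread widely within each treatment, and it is the largest single share of DCT2 counts. With S100g left out of the counts the same 3 genes were called.

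Of the genes of salt transport in the distal convoluted tubule, 18 were tested and none was called, with 8 above 0, 10 below and a median log2 fold change of -0.09. The kinase genes around NCC stayed below the threshold. Wnk1 changed by -0.26 ± 0.16 (SE, edgeR adjusted p = 0.601), Wnk4 by 0.08 ± 0.18, and Stk39, which encodes the kinase that phosphorylates NCC, by 0.19 ± 0.18. Cul3, a component of the ligase that removes WNK kinases, changed by -0.25 ± 0.19. Ppp1r1a, a phosphatase inhibitor, changed by -0.20 ± 0.20. Of the basolateral channel genes, Kcnj10 changed by -0.12 ± 0.17, Kcnj16 by -0.20 ± 0.16 and Bsnd by -0.16 ± 0.18. No member of this group had a log2 change beyond 0.39 in size except Fxyd2.

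Fxyd2 encodes the gamma subunit, a regulator of the sodium pump. It was at 863, 1198 and 829 CPM with vehicle and at 1574, 1271 and 1868 with furosemide, without overlap, a log2 fold change of 0.70 ± 0.22 that missed the threshold (SE, edgeR adjusted p = 0.158). Atp1b1, which encodes the beta subunit, changed by 0.04 ± 0.15. All of the tested pump genes were above 0, and none of these 3 was called.

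Of 8 tested genes of the sodium channel and aldosterone list, 6 were below 0 and none was called, with a median of -0.15. Scnn1a was at 4691, 3050 and 3345 CPM with vehicle and at 2798, 4616 and 2459 with furosemide (-0.17 ± 0.26). Scnn1b changed by -0.13 ± 0.22 and Scnn1g by -0.22 ± 0.26 (SE). Within each treatment a single library was the highest for Scnn1a and Scnn1b, number 1 with vehicle and number 4 with furosemide. The aldosterone-induced kinase gene Sgk1 changed by -0.23 ± 0.20, Nedd4l, a ligase that removes ENaC, by -0.39 ± 0.22, and Kcnj1, a potassium secretory channel, by -0.09 ± 0.17. Nr3c2, the mineralocorticoid receptor, changed by 0.02 ± 0.23. Hsd11b2 changed by 0.21 ± 0.67, and its level ran from 286 to 1338 CPM within furosemide libraries. These levels include the 11 CNT sub3 cells, where Hsd11b2 was at 20296 CPM.

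The 8 tested genes of calcium and magnesium transport had a median of -0.01, and none was called. Beyond the markers, Trpm6 changed by 0.31 ± 0.21, Egf by -0.06 ± 0.22 and Casr, the calcium-sensing receptor, by 0.14 ± 0.31. Kl was at 14423, 21013 and 16447 CPM with vehicle and at 13588, 11819 and 14440 with furosemide. The groups overlapped by 1 pair of libraries (-0.38 ± 0.17, SE, edgeR adjusted p = 0.422).

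The other lists held 1 called gene each or none. Among 3 tested genes of iron and heme, Tfrc was called. Hmox1, which encodes heme oxygenase 1, was at 349, 272 and 160 CPM with vehicle and at 1196, 1010 and 490 with furosemide, apart but not called (1.74 ± 0.38, SE, edgeR adjusted p = 0.0782). Without furosemide library 6 it was called (2.03, adjusted p = 0.00233), and also with library size alone and with DESeq2. Among 5 antioxidant genes Gpx6 was called, and Gpx6, Hmox1 and Gpx1 were apart upward (9.48% of all 211 genes were), while Nfe2l2, the factor that drives many of them, was apart downward (9.95% of all genes) without being called. Gpx1 changed by 0.31 ± 0.16. Among 6 genes of energy and creatine, Ckb was called. Lpl, the lipoprotein lipase gene, was at 2281, 3017 and 1469 CPM with vehicle and at 3800, 3561 and 4243 with furosemide (0.77 ± 0.23, adjusted p = 0.151). Without vehicle library 3 it was called (1.05, adjusted p = 0.0459). Lpl was also called with library size alone, without the filter on low counts and after thinning.

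None of the 4 tested genes of division and growth control was called, and Cdkn1a, a cell cycle inhibitor, had the smallest p (0.21 ± 0.23). Birc5 and Mki67, genes of dividing cells, did not pass the filter on low counts. Counts of both were found in 3 of 325 furosemide cells and in 0 of 160 vehicle cells. A count of 0 allows a share of up to 1.88% of cells with counts of both. This limit covers counting error only, over cells pooled from 3 libraries, and is not one on dividing cells. Leaving out every cell with either gene left the same 3 genes called. Of 5 tested genes of the IGF axis none was called, with Igfbp5 at 0.48 ± 0.46.

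Of the other lists none had a called gene in DCT2. Hspa1a, which encodes the heat shock protein HSP70, changed by -0.65 ± 0.24 (SE, edgeR adjusted p = 0.308). Smad7, an inhibitor of TGF-beta signalling, changed by -0.54 ± 0.24, and Edn1, the endothelin gene, by -0.30 ± 0.28. Thbs1, which encodes the matrix protein thrombospondin 1, was at 733, 904 and 1105 CPM with vehicle and at 563, 516 and 461 with furosemide. It had the smallest p among genes with lower levels (-0.82 ± 0.21, adjusted p = 0.1).

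Other genes with small p values moved in either direction without being called. Upward they were Col4a1, a basement membrane collagen (0.85 ± 0.27, edgeR adjusted p = 0.174), and Tmem252 (1.16 ± 0.40). Downward they were Id3, an inhibitor of transcription factors (-0.74 ± 0.20, adjusted p = 0.116), and Nfat5, a factor that responds to tonicity (-0.80 ± 0.22, adjusted p = 0.139). Sirt1, a deacetylase, and Npnt, an extracellular matrix protein, changed by -0.80 ± 0.30 and -0.44 ± 0.17. Id3 was called without furosemide library 6 (-0.95, adjusted p = 0.0118).

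Slc4a1 (-0.94 ± 0.28, SE, edgeR adjusted p = 0.151) and Aqp6 (-0.78 ± 0.24, adjusted p = 0.151) also had low p values, and Slc4a1 was called without vehicle library 1 (-1.22, adjusted p = 0.0418). These are type A intercalated genes, whose counts in DCT2 come mostly from the 22 AIC sub2 cells described above. All 4 tested type A intercalated markers were below 0, with a median of -0.73, and none was called. The summed level of the 4 panel markers ran from 3116 to 5297 CPM with vehicle and from 1750 to 3649 with furosemide, against 142747 in the intercalated class itself. In the main cluster alone, without these cells, Ckb, Tfrc and Gpx6 were called with log2 fold changes of 1.96, 1.92 and 1.60.

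Markers of other cell types were low in DCT2. The 17 proximal markers of the panel summed to 1959 to 3166 CPM with vehicle and 2627 to 3847 with furosemide, against 334819 in the proximal s1/s2 class, with Slc22a7 and Fabp1 at 0. The 6 TAL markers summed to 10959 to 17483 CPM and 12741 to 15976, against 344530 in TAL. The 5 immune markers reached 63.6 CPM at most with vehicle and 452 with furosemide, with Cd4 at 0. The 3 endothelial markers reached 33.7 CPM at most. The 4 thin limb markers summed to 1095 to 2338 CPM with vehicle and 1801 to 5340 with furosemide, against 103028 in thin limb cells. The 5 principal cell markers, Scnn1b and Scnn1g among them, summed to 3203 to 4172 CPM and 2437 to 6158, against 188313 in cortical principal cells. The part of these counts in the results was not tested.

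Next, the treatment effect in DCT2 was compared with that in its neighbours, in 1 model for each pair of classes with the library as a block. Against DCT, 2 of 264 genes (0.758%) differed. Ckb rose more in DCT2 than in DCT, by 1.41 ± 0.16 on the log2 scale (SE, edgeR adjusted p = 0.00317). In DCT cells Ckb was at 10622 ± 922 CPM with vehicle and 15473 ± 1014 with furosemide (SD, n = 3 each), a log2 change of 0.54 against 1.94 in DCT2. In plain CPM the lowest DCT library (10544) still lay above the highest DCT2 library (4966). DCT2 made up 16.4% of DCT and DCT2 cells with vehicle and 23.4% with furosemide, so which cells count as DCT2 bears on differences from DCT. A change within DCT2 cells and a shift of cells across this border cannot be told apart here.

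Slc2a4, which encodes the glucose transporter GLUT4, rose in DCT and not in DCT2. In DCT2 it was at 2150, 1983 and 1760 CPM with vehicle and at 2013, 2263 and 1885 with furosemide (0.06 ± 0.16). In DCT it changed by 0.88 ± 0.15 (SE, edgeR adjusted p = 0.0108), from 657 ± 73.1 to 1210 ± 126 CPM (SD, n = 3). The difference was -0.78 ± 0.13 (adjusted p = 0.029). It passed the threshold in 8 of 15 settings, and missed it when any library other than vehicle library 5 was left out. For Gpx6 the difference from DCT was 0.85 ± 0.24 (adjusted p = 0.151) and for Tfrc 0.50 ± 0.15 (adjusted p = 0.178). Tfrc itself was called in DCT, at 1.30 ± 0.23, where 4.73% of 275 genes were called.

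Against CNT, 3 of 250 genes (1.2%) differed, all with a lower effect in DCT2. Calb1 changed by 0.03 in DCT2 and by 1.82 ± 0.27 in CNT (SE, edgeR adjusted p = 0.0122), where it went from 13363 ± 4731 to 47360 ± 11392 CPM (SD, n = 3). The difference was -1.87 ± 0.23 (adjusted p = 0.0153). In plain CPM its highest CNT library (50790) lay below its lowest DCT2 library (68832). Kl changed by -0.38 in DCT2 and by 0.61 in CNT, a difference of -1.07 ± 0.16 (adjusted p = 0.0273). Slc12a3 changed by -0.05 in DCT2 and by 2.27 ± 0.36 in CNT, a difference of -2.40 ± 0.37 (adjusted p = 0.0273). Its CNT level was low, at 76.4 ± 40.9 CPM with vehicle and 380 ± 69.0 with furosemide. In plain CPM averaged over both treatments (217) it lay within the range of the proximal class means (109 to 255). After thinning, Slc12a3 was found in 3.92% ± 2.04 and 5.89% ± 1.27 of CNT cells, and in 4.70% ± 1.55 and 6.30% ± 1.02 of proximal s2/s3 cells (SD, n = 3 each). The CNT share was thus not above background, but a share of cells does not show counts per cell. By library, plain CPM of Slc12a3 ran from 37.7 to 384 in CNT. In the proximal classes it ran from 105 to 435 (s1/s2), 74.8 to 230 (s1/s2/s3) and 77.2 to 156 (s2/s3). Whether the change reflects expression in CNT cells was not tested. Kl missed the threshold in 7 and Slc12a3 in 8 of 15 settings, among them 5 with a library left out for each.

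Without vehicle library 1 or without furosemide library 4, 0 genes differed between DCT2 and CNT by edgeR, with 29 and 36 genes at an unadjusted p under 0.05. The differences for Calb1 were then -1.78 (adjusted p = 0.0737) and -1.94 (adjusted p = 0.0606). Calb1 and Slc12a3 are also markers that separate the classes, so which cells count as CNT or DCT2 bears on both. A change within CNT cells and a shift of cells across this class border cannot be told apart here. The differences from CNT for Ckb (0.43 ± 0.54), Tfrc (-0.10 ± 0.36, or 0.25 by library size alone) and Gpx6 (0.15 ± 0.65) did not pass the test, and Tfrc was called in CNT on its own, at 1.82 ± 0.30, where 5.08% of 256 genes were called.

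**Figure D5:**
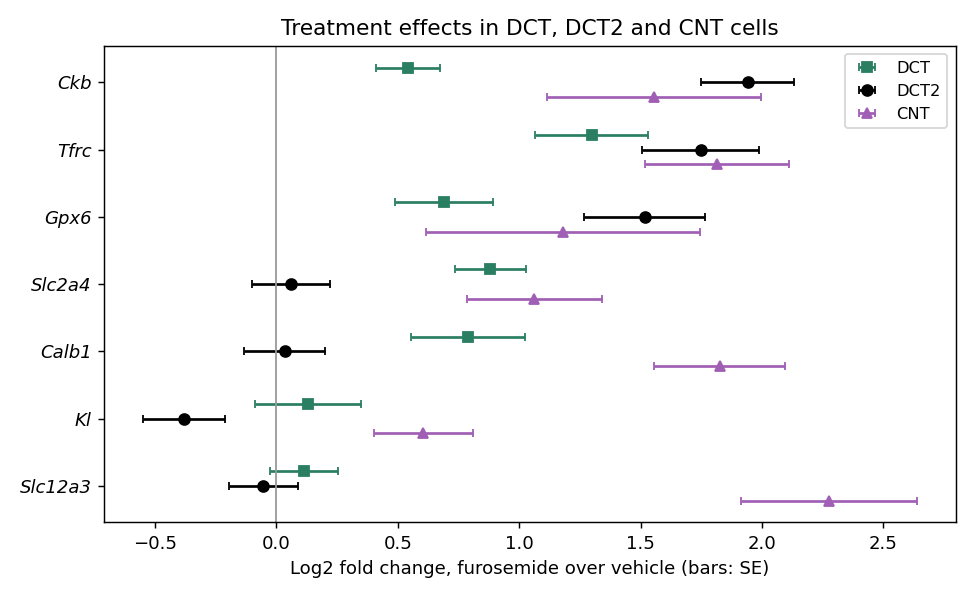
Log2 fold change, furosemide over vehicle, of 7 genes in DCT, DCT2 and CNT cells, each class fitted on its own. Points are estimates and bars their SE. Ckb is at 1.94 in DCT2 and 0.54 in DCT, and Calb1 and Slc12a3 lie near 0 in DCT2 and at 1.82 and 2.27 in CNT.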

How the data were processed

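Per the labels, single kidney cells of vehicle and furosemide mice were captured and sequenced with BD Rhapsody whole-transcriptome and targeted assays. Bowtie2 2.2.9 was used, per the submitters' processing notes. Not given in the sources used here are the build, how reads were counted, and the unit (molecules or reads). Whole-number counts make up the deposited table, with 456 genes, and per its name the authors had removed doublets and mixed cells and equalised cell numbers, which sets the totals behind shares of cells. No doublet caller was run here.

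DCT2 cells, libraries and treatments came from the authors' annotation, which is of clusters made from these cells. No label joins a library to the replicate number of a title. Counts were summed per library and class and tested with edgeR 4.0.16 in R 4.3.3 (TMM, filterByExpr by group, robust quasi-likelihood fit, adjusted p under 0.05). A log2 fold change is furosemide over vehicle, and its SE was computed from the F statistic. Effects in 2 classes were compared as an interaction with library as a block. DESeq2 1.42.0 and limma 3.58.1 were alternatives. Shares were compared with exact permutation tests over 20 assignments of the libraries. Thinning drew 500 counts per cell and left out 4 shallower DCT2 cells. The tests were also tested on simulated data. Summed counts per DCT2 library ran from 62862 to 207897.

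Named in the text were all called genes, the 8 higher and the 8 lower genes with the smallest p, the markers, all tested members of the salt, calcium and magnesium, sodium channel and pump lists, and the member with the smallest p of each other list. Values of 2 of these genes are not reported here. The members and lists were chosen with earlier results of these data known.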

Additional observations from a re-analysis of the deposited data

Results flagged for a closer look

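For 5 results the response to furosemide differed between DCT2 and a neighbouring class, by a test of the difference itself in edgeR with the library as a block. Ckb rose more in DCT2 than in DCT, with a difference of 1.41 on the log2 scale (adjusted p = 0.00317), and all 3 furosemide libraries were above all 3 vehicle libraries in both classes. Slc2a4 rose less in DCT2 than in DCT, with a difference of -0.78 (adjusted p = 0.029). Calb1 differed between DCT2 and CNT by -1.87 (adjusted p = 0.0153), Kl by -1.07 (adjusted p = 0.0273) and Slc12a3 by -2.40 (adjusted p = 0.0273). Counts of Slc12a3 in CNT were few, with 30, 23 and 7 in vehicle libraries 1, 3 and 5, and the share of CNT cells with a count was not above that of proximal cells. No explanation of these differences was tested.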

How the results depend on the processing

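Ckb was called in DCT2 under all 22 settings (log2 fold change 1.68 to 2.10). Tfrc (1.54 to 2.01) and Gpx6 (1.26 to 1.75) were called in all but cells without Trpv5, a setting chosen after seeing the data, where 1 gene was called. The count of 3 genes became 5 with library size alone and 3 to 5 when a library was left out, with 5 without vehicle library 1, which added Slc4a1 and Inmt, or furosemide library 6, which added Hmox1 and Id3. Library size alone moved the median of all genes from 0.02 to 0.15, and in the differences from DCT and CNT from 0.03 to 0.22 and from -0.07 to 0.28, where the calls were 1 higher and 0 lower, and 2 higher and 1 lower.

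The 2 genes that differed from DCT became 1 with library size alone, 10 with DESeq2, 1 after thinning and 1 to 8 when a library was left out, with 8 without vehicle library 5 and 1 without vehicle libraries 1 or 3 or furosemide libraries 2 or 6. Ckb was called in all 15 settings, and Slc2a4 missed the threshold in 7 (-0.83 to -0.51). The 3 genes that differed from CNT became 6 without a filter, 6 with limma-voom, 11 with DESeq2, 1 without the deepest 5% of cells and 0 to 3 when a library was left out, with 0 without vehicle library 1 or furosemide library 4 and 1 without furosemide libraries 2 or 6. The cause of these moves was not tested.

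Signs turned only for values that did not pass the test. Slc12a3 in DCT2 was 0.0617 with library size alone, 0.0285 with equal cell numbers and -0.0787 to 0.0166 when a library was left out. Calb1 was -0.0723 to 0.156 when a library was left out, below 0 without furosemide library 6. Slc8a1 was -0.23 with equal cell numbers and -0.35 to 0.62 when a library was left out, and Aqp6 was 0.18 with equal cell numbers. For the difference from CNT, Tfrc was 0.25 with library size alone and -0.45 to 0.23 when a library was left out. Gpx6 was -0.51 after thinning, -0.0491 without the deepest 5% of cells and -0.60 to 0.62 when a library was left out.

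No paired analysis was possible because the library numbers in the files carry no replicate number of the titles, so the planned fit with a replicate block was not run. With 40 to 112 DCT2 cells per library, 211 of 456 genes passed the filter on low counts, and the others were not tested.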
